A study of Mus musculus with 12 samples.

Results

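The vascular endothelial growth factor (VEGF) ligands and receptors comprised 10 genes of the 37620 in the count table: the ligands Vegfa, Vegfb, Pgf, Vegfc and Vegfd, the tyrosine kinase receptors Kdr (VEGFR2), Flt1 (VEGFR1) and Flt4 (VEGFR3), and the co-receptors Nrp1 and Nrp2. They were chosen by name as the members of the family, each was matched to an Ensembl identifier, and all 10 passed the filter on low counts in every comparison. They were measured by RNA-seq in cells labelled as bone endothelial cells (BECs) of C57/Bl6 mice, an inbred laboratory strain. No transgene or treatment is given for any group, and the cells were purified by endomucin, a surface protein of capillary and venous endothelium, per the labels from the tibia. The 4 groups were females of 2 weeks, males of 2 weeks, females of 65 weeks and males of 65 weeks, with 3 libraries in each and 12 in all. The series compares the transcriptome of these cells between sexes and between ages.

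VEGF ligands are secreted dimers. Vegfa binds both Kdr, the main signalling receptor of blood vessel endothelium, and Flt1, which binds Vegfa tightly but signals weakly and also exists as a soluble decoy. Vegfb and Pgf bind Flt1, whereas Vegfc and Vegfd bind Flt4, the receptor of lymphatic and sinusoidal endothelium, and processed Vegfc also binds Kdr. Nrp1 and Nrp2 have no kinase of their own and present ligands to these receptors, and they also bind class 3 semaphorins together with plexins. In growing bone Vegfa draws vessels into the cartilage of the growth plate.

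The members lie on several chromosomes (GRCm39, GENCODE M39 annotation). Kdr (ENSMUSG00000062960, chr5:76093487-76139884, minus strand) and Flt1 (ENSMUSG00000029648, chr5:147498414-147662826, minus strand) share chromosome 5. Flt4 (ENSMUSG00000020357) was annotated at chr11:49500090-49543582, plus strand. Nrp1 (ENSMUSG00000025810) was at chr8:129085085-129231082 and Nrp2 (ENSMUSG00000025969) at chr1:62742444-62857854, both on the plus strand. Vegfa (ENSMUSG00000023951) was at chr17:46327919-46343309, Vegfb (ENSMUSG00000024962) at chr19:6958447-6965127 and Pgf (ENSMUSG00000004791) at chr12:85213409-85224564, all on the minus strand. Vegfc (ENSMUSG00000031520) was at chr8:54530257-54640131 and Vegfd (ENSMUSG00000031380) at chrX:163156240-163185646, both on the plus strand. Vegfb overlaps Trpt1 on the opposite strand. Trpt1 held 497 counts over all 12 libraries, and the use of strand in counting is not stated in the sources used here, so reads of this pair may have been shared.

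The promoters of Kdr, Flt1 and Vegfa are shown because these genes are the main ligand of the family and its receptors in blood endothelium, and because all 3 were lower at 65 weeks in both sexes. The sequences are from RefSeq (GRCm38.p6), 240 bases from 250 to 11 bases before the annotated start, 5′ to 3′ on the gene's strand: chr5:75978466-75978705 for Kdr, chr5:147726022-147726261 for Flt1 and chr17:46032388-46032627 for Vegfa, all on the minus strand. Capitals mark GGAA or its complement TTCC, the core bound by ETS factors such as the endothelial factor Erg.
Kdr: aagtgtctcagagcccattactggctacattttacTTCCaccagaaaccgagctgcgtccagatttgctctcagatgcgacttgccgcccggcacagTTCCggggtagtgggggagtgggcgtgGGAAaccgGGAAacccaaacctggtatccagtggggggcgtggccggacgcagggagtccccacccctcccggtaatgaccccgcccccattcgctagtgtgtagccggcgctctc
Flt1: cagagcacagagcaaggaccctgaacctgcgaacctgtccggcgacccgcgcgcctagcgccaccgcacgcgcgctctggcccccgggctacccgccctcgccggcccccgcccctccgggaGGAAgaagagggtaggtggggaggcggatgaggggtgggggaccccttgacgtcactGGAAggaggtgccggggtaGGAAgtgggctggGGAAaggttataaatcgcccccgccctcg
Vegfa: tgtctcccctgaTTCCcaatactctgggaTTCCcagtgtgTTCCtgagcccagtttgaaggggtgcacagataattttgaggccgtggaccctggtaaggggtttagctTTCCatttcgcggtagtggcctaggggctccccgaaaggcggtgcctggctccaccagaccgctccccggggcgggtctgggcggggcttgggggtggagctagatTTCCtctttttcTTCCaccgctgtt
The core was found 4 times in the Kdr window, 4 times in the Flt1 window and 6 times in the Vegfa window. In the same window it was found 4 times at Nrp1, 3 times at Vegfd, 2 times at Flt4, once each at Vegfb, Vegfc and Nrp2, and 0 times at Pgf. It occurs in 92.6% of the 27025 windows of this kind, with a median of 3 matches, so its presence does not set the members apart. The hypoxia response core ACGTG, searched on both strands, was in 15.9% of all windows and in 0 of the 10 members' windows. Only these 240 bases per gene were searched, so this does not show that the members lack such elements farther from the start. GGGCGG, the GC box, was in 31.5% of all windows and in 9 of the 10 members' windows, all except that of Vegfd.

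Total counts ran from 26044743 to 44569600 per library and were lower at 65 weeks (26044743 to 34088694) than at 2 weeks (35012947 to 44569600). Levels are given as CPM, a gene's counts scaled to a common library total of 1e+06. All 12 libraries matched the sex of their label by Xist and Y-linked transcripts, but male 65-week replicate 3 held 117 Xist counts against 0 to 3 in the other 5 male libraries, and female 2-week replicate 3 held 25 counts of Y-linked genes. The label as endothelial cells was compared with a list of 20 endothelial markers that contains no member of the family. The list summed to 3031.8 to 5598.1 CPM at 2 weeks and to 196 to 296 CPM at 65 weeks, and all 20 genes were lower at 65 weeks in both sexes (edgeR adjusted p under 0.05). Cdh5, the adhesion protein of endothelial junctions, fell in females from 590 ± 159 to 11.8 ± 2.5 CPM and in males from 737 ± 85.7 to 12.7 ± 1.81 CPM (SD, n = 3). Emcn, the gene of the endomucin used for purification, fell in females from 147 ± 32.8 to 5 ± 2.1 CPM and in males from 197 ± 38 to 5.64 ± 0.971 CPM (SD, n = 3). The neutrophil list of 8 genes rose at the same time, from 3924.7 to 6155.8 CPM at 2 weeks to 11676.2 to 25436 CPM at 65 weeks, with 7 of 8 genes called higher in females and 8 of 8 in males. Other lists fell with the endothelial one. The 8 osteoblast genes summed to 3040.1 to 4523.7 CPM at 2 weeks and to 86.4 to 149 CPM at 65 weeks, the 7 genes of marrow stroma to 5276.2 to 8421 CPM and to 969 to 1602.2 CPM, and the 6 megakaryocyte genes to 1489.4 to 2512.7 CPM and to 117 to 324 CPM, and all genes of these 3 lists were called lower in both sexes. The 6 erythroid genes summed to 25504.2 to 47094 CPM at 2 weeks and to 24006.6 to 37316.9 CPM at 65 weeks, above the endothelial list at both ages. Transcripts of other cells were thus present at both ages. In bulk libraries such as these, fewer endothelial cells and less of a transcript per endothelial cell cannot be told apart, which bears on every comparison of ages.

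Whether the family differed between ages was asked in each sex, 65 over 2 weeks, among the 6 libraries of that sex with edgeR's quasi-likelihood test and Benjamini-Hochberg adjustment over all genes. In each sex 8 of the 10 members were lower at 65 weeks, 1 (Vegfb) was higher and 1 (Vegfd) did not pass the threshold of 0.05. Among all genes tested 29.5% were called lower and 30.2% higher in females, and 28.5% lower and 27.0% higher in males. The median log2 fold change of the 10 members was -2.48 in females and -2.57 in males, while over all genes it was 0.00563 and 0.00797. Whether replicates came from separate animals is not stated, so the p-values measure the spread between these libraries, which may in part be technical.

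**Figure D1:**
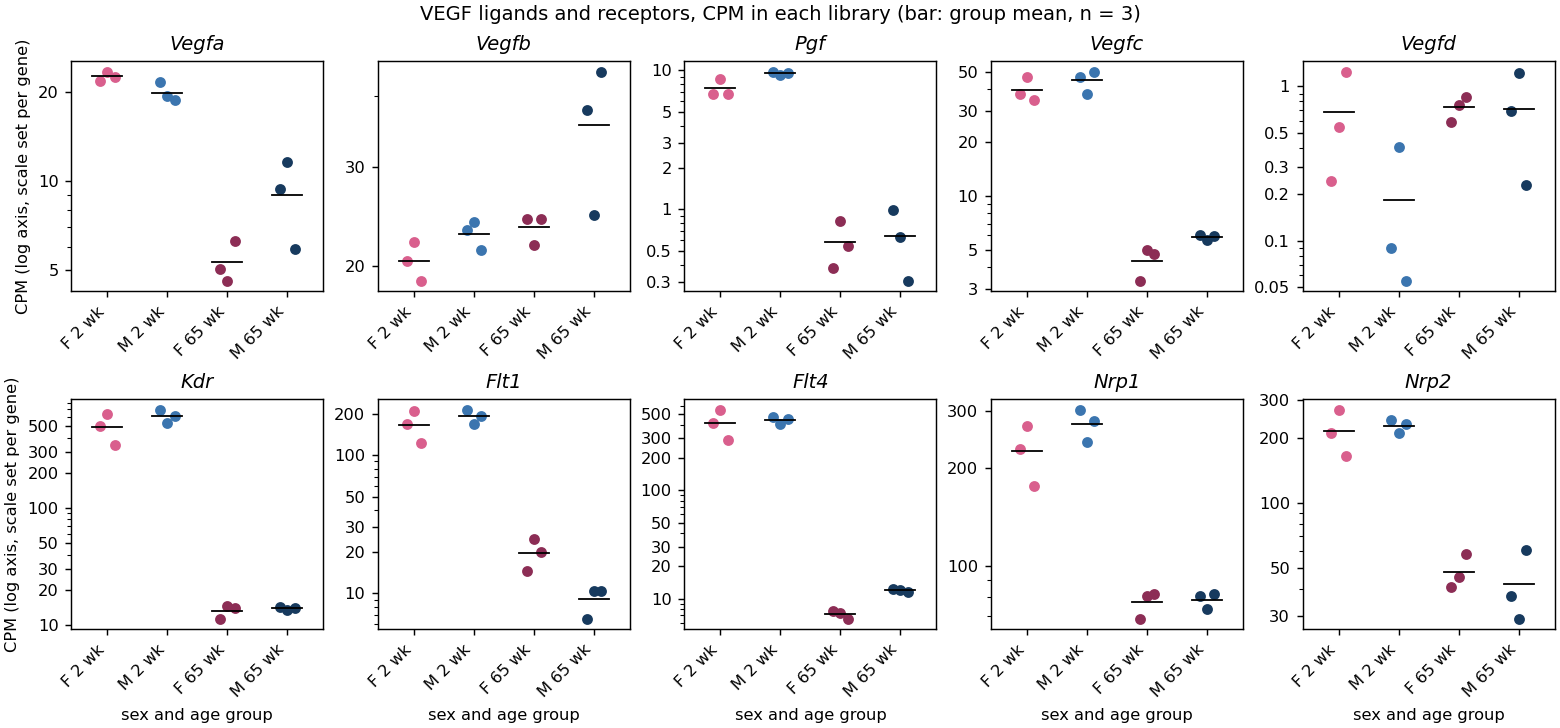
Level of each of the 10 genes in each of the 12 libraries, in CPM on a log axis whose range is set for each gene. Points are libraries, coloured by sex and age group, and the bar is the group mean of 3 libraries. For Kdr the 2-week libraries lie between 344 and 698 CPM and the 65-week libraries between 11.3 and 14.6 CPM, whereas for Vegfb the libraries of the ages lie close together.

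Of the family, the kinase receptors Kdr and Flt4 had the largest log2 fold changes between ages in both sexes. Kdr was at 506, 641 and 344 CPM in the 2-week female libraries and at 11.3, 14.6 and 13.9 CPM in the 65-week female libraries. In males it was at 698, 532 and 614 CPM at 2 weeks and at 14.2, 13.5 and 13.9 CPM at 65 weeks. The ages were far apart in both sexes, and the 65-week libraries of both sexes lay within a narrow range. Kdr was 33.9-fold lower at 65 weeks in females (log2 fold change -5.085, SE 0.238, edgeR adjusted p = 2.73e-06) and 40.8-fold lower in males (log2 fold change -5.35, SE 0.148, edgeR adjusted p = 7.23e-07). In females 1.88% and in males 1.71% of the genes tested fell by more than Kdr.

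Flt4 had the lowest log2 fold change of the members in females. It was at 413, 555 and 288 CPM in 2-week females and at 7.68, 7.42 and 6.52 CPM in 65-week females. Male libraries held 472, 411 and 453 CPM at 2 weeks, against 12.3, 12.1 and 11.6 CPM at 65 weeks. No library of 1 age reached the range of the other, and at 65 weeks the lowest male library was above the highest female one. The change was 52.6-fold in females (log2 fold change -5.72, SE 0.245, edgeR adjusted p = 1.95e-06) and 34.2-fold in males (log2 fold change -5.09, SE 0.121, edgeR adjusted p = 6.99e-07).

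Flt1 was at 168, 209 and 122 CPM in 2-week females and at 14.6, 24.6 and 20 CPM in 65-week females. The male libraries stood at 214, 168 and 193 CPM at 2 weeks and at 6.55, 10.4 and 10.4 CPM at 65 weeks. The ages did not overlap in either sex, and at 65 weeks every male library lay below every female library. Flt1 was 7.62-fold lower at 65 weeks in females (log2 fold change -2.93, SE 0.237, edgeR adjusted p = 2.56e-05) and 19.4-fold lower in males (log2 fold change -4.28, SE 0.197, edgeR adjusted p = 2.89e-06).

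The neuropilins had smaller log2 fold changes than the kinase receptors. Nrp1 was at 229, 270 and 176 CPM in 2-week females and at 68.5, 80.6 and 81.9 CPM in 65-week females. The 2-week males held 303, 240 and 279 CPM and the 65-week males 80.3, 73.4 and 81.7 CPM. The lowest 2-week library held more than 2 times the level of the highest 65-week library. Nrp1 fell by 1.41 on the log2 scale in females (SE 0.147, edgeR adjusted p = 9.43e-05) and by 1.69 in males (SE 0.116, edgeR adjusted p = 1.72e-05).

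Nrp2, which pairs with Flt4 and serves Vegfc, was at 211, 271 and 165 CPM in 2-week females and at 40.9, 45.3 and 58.2 CPM in 65-week females. In males it was at 242, 211 and 231 CPM at 2 weeks and at 36.9, 29.1 and 60.7 CPM at 65 weeks. The ages did not overlap, and among the 65-week males replicate 3 lay well above the other libraries. The log2 fold change of Nrp2 was -2.02 in females (SE 0.19, edgeR adjusted p = 5.46e-05) and -2.33 in males (SE 0.236, edgeR adjusted p = 0.000119).

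Among the ligands, Vegfa was at 21.9, 23.5 and 22.6 CPM in 2-week females and at 5.06, 4.61 and 6.28 CPM in 65-week females. The male libraries stood at 21.6, 19.4 and 18.8 CPM at 2 weeks and at 9.44, 11.6 and 5.91 CPM at 65 weeks. Every 65-week library lay below every 2-week library, and the 65-week males were the most scattered group. Vegfa was 3.89-fold lower at 65 weeks in females (log2 fold change -1.96, SE 0.136, edgeR adjusted p = 1.3e-05) and 2.03-fold lower in males (log2 fold change -1.02, SE 0.251, edgeR adjusted p = 0.00986). Cartilage markers also fell, among them Col10a1 of hypertrophic chondrocytes, which are known to make Vegfa in the growth plate. The 8 cartilage genes, most of them not specific to hypertrophic cells, summed to 304 to 557 CPM at 2 weeks and to 5.02 to 10.1 CPM at 65 weeks. Of these, 7 of 7 tested genes were called lower in each sex. Col10a1, the defining collagen of hypertrophic chondrocytes, was at 206 ± 7.93 CPM at 2 weeks in females and at 295 ± 65.1 CPM in males of that age (SD, n = 3). It held 0 counts in all 65-week female libraries. Osteoblasts, marrow stroma and megakaryocytes are also known sources of Vegfa, and their lists fell as given above, with the osteoblast collagen Col1a1 at 3210.5 CPM in 2-week and 27.9 CPM in 65-week females and at 2853.5 and 31.0 CPM in males of these ages (means, n = 3). Not every list fell with Vegfa: the neutrophil list rose, as given above. Of the 7 macrophage genes, 5 were called higher and 0 lower in females, and 3 higher and 1 lower in males. The part of any of these cells in the level of Vegfa was not tested.

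Vegfc was at 37.5, 46.4 and 34.5 CPM in 2-week females and at 3.34, 4.96 and 4.71 CPM in 65-week females. Male libraries held 46.6, 37.3 and 50 CPM at 2 weeks, against 6, 5.67 and 5.95 CPM at 65 weeks. Vegfc was thus the ligand with the most counts at 2 weeks, and the ages did not overlap. It was 8.24-fold lower at 65 weeks in females (log2 fold change -3.04, SE 0.175, edgeR adjusted p = 5.62e-06) and 7-fold lower in males (log2 fold change -2.81, SE 0.145, edgeR adjusted p = 4.69e-06).

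Pgf (placental growth factor) was a low transcript, at 6.81, 8.71 and 6.71 CPM in 2-week females and at 0.379, 0.821 and 0.546 CPM in 65-week females. In males it was at 9.8, 9.21 and 9.52 CPM at 2 weeks and at 0.988, 0.63 and 0.307 CPM at 65 weeks, the latter from 8 to 27 counts per library. The ages did not overlap in either sex. Its log2 fold change was -3.51 in females (SE 0.296, edgeR adjusted p = 3.16e-05) and -3.75 in males (SE 0.368, edgeR adjusted p = 0.0001), the largest fall among the ligands in these fits.

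Vegfb was the only member called higher at 65 weeks. It was at 20.4, 22 and 18.8 CPM in 2-week females and at 24.2, 21.8 and 24.2 CPM in 65-week females, and these ranges overlapped. The male libraries stood at 23.1, 23.9 and 21.3 CPM at 2 weeks and at 37.9, 24.6 and 44.3 CPM at 65 weeks, with replicate 2 at 65 weeks just above the highest 2-week library. The log2 fold change was 0.33 in females (SE 0.0924, edgeR adjusted p = 0.0148) and 0.76 in males (SE 0.196, edgeR adjusted p = 0.0126). The female call was lost without 2-week replicate 1 (edgeR adjusted p = 0.125), without 2-week replicate 3 (edgeR adjusted p = 0.121) and with all 12 libraries in 1 model (edgeR adjusted p = 0.116). The male call was lost without 2-week replicate 3 (edgeR adjusted p = 0.0544) and without 65-week replicate 1 (edgeR adjusted p = 0.0571).

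Vegfd was near the limit of detection. It was at 0.245, 0.543 and 1.25 CPM in 2-week females, and at 0.585, 0.763 and 0.853 CPM in 65-week females. In males it was at 0.0897, 0.407 and 0.055 CPM at 2 weeks and at 0.695, 1.22 and 0.23 CPM at 65 weeks. The lowest library held 2 counts and the highest 48, and the groups overlapped in both sexes. The change between ages was 0.23 on the log2 scale in females (95% interval -1.09 to 1.55, edgeR adjusted p = 0.75) and 2.05 in males (95% interval 0.0971 to 4.01, edgeR adjusted p = 0.0708). In males the difference was called without 65-week replicate 3 (log2 fold change 2.45, edgeR adjusted p = 0.0208), without 2-week replicate 2 (edgeR adjusted p = 0.0286) and with all 12 libraries in 1 model (edgeR adjusted p = 0.0456).

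The 8 falls kept their call in every alternative of the fit in both sexes, also without male 65-week replicate 3 and without female 2-week replicate 3. Without the former, Vegfa fell by 0.799 on the log2 scale in males (edgeR adjusted p = 0.00142) and Nrp2 by 2.66 (edgeR adjusted p = 4.33e-06).

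**Figure D2:**
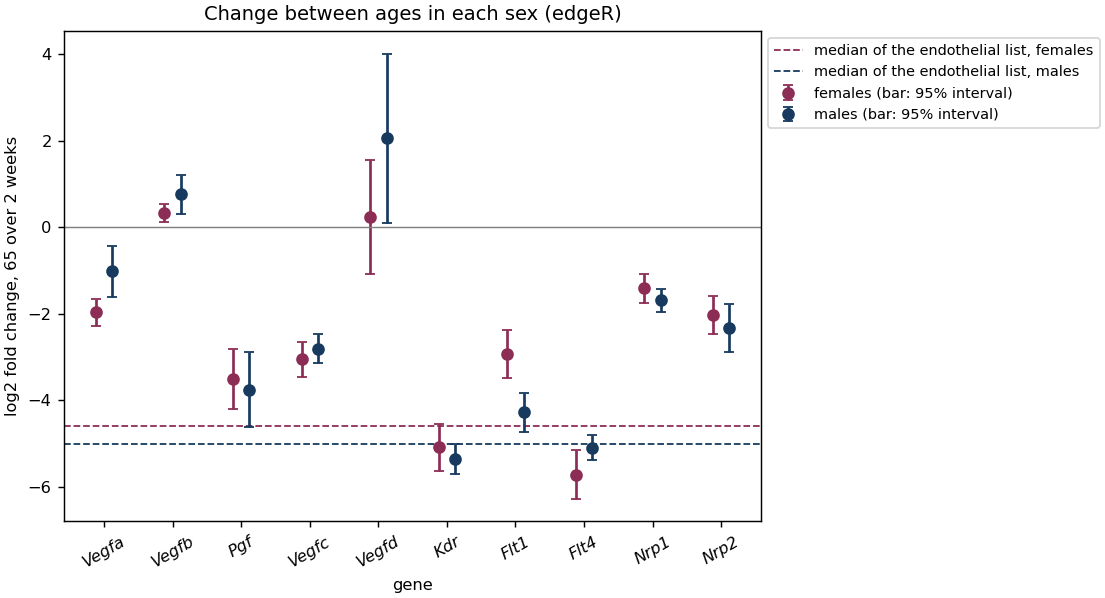
Log2 fold change of each gene between 65 and 2 weeks in females and in males (edgeR), with 95% intervals as bars, the line at 0 in grey and the median of the 20 endothelial markers dashed. Kdr and Flt4 lie below the endothelial medians of -4.6 (females) and -5 (males), Flt4 in females farthest (interval -6.28 to -5.15). The intervals of Kdr in females (-5.63 to -4.54) and of Flt4 in males (-5.38 to -4.81) span the median of that sex. The other falling genes lie above the medians, and Vegfb and Vegfd lie above 0.

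To describe how the family stood relative to endothelial transcript, each member's counts were divided by the summed counts of the 20 endothelial markers in the same library. The summed markers were at a mean of 4042.5 CPM in 2-week and 262 CPM in 65-week females, and at 5162.2 and 220 CPM in males of these ages. A single gene, Pecam1, made up 8.18 ± 0.102% of this sum in 2-week females and 33.4 ± 2.22% in 65-week females, and 8.11 ± 0.114% in 2-week males and 18.4 ± 4.82% in 65-week males (SD, n = 3). Pecam1 is also known from megakaryocytes and leukocytes, so values without it, chosen after seeing the data, are given as well. Kdr was at 122 ± 7.28 counts per 1000 endothelial counts in 2-week females and at 50.9 ± 7.86 in 65-week females (SD, n = 3). In males Kdr was at 119 ± 6.96 at 2 weeks and at 63.8 ± 7.52 at 65 weeks (SD, n = 3). Kdr and Flt4 were the members that were lower on this scale in every 65-week library. Flt4 went from 102 ± 7.09 to 27.6 ± 2.43 in females and from 86.9 ± 6.26 to 55.3 ± 8.21 in males (SD, n = 3). With Pecam1 left out of the sum, Kdr was at 124 to 137 in 2-week females and 65 to 87.3 in 65-week females, and at 121 to 136 in 2-week males and 72 to 84 in 65-week males. Flt4 was then at 104 to 119 and 39.1 to 44.2 in females of these ages, and at 89.6 to 102 and 60.1 to 75 in males. The ages still did not overlap for either receptor. This scale depends on the markers in the sum, which fell to different degrees. By the ratio of mean CPM, Cdh5 fell 50.1-fold in females and 58-fold in males, and the marker Clec14a 78.5- and 75.6-fold. Both fell more than Kdr, at 37.5- and 44.2-fold on the same measure. So did the markers Sox17, at 45.3- and 46.7-fold, and Sox7, at 52.2- and 115-fold, and in females only Plvap, at 41.9-fold. All other markers of the list fell less than Kdr in both sexes, among them Eng, at 12.1- and 15-fold, and Erg, at 3.04- and 3.28-fold.

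Flt1 went the other way in females, from 40.2 to 41.9 counts per 1000 endothelial counts at 2 weeks to 57 to 85.6 at 65 weeks. In males its 65-week libraries, at 31, 53.3 and 41.3, spanned the 2-week range of 35 to 38.4. Without Pecam1, Flt1 was at 84.2 to 130 in 65-week females and 36 to 64.9 in 65-week males. Nrp1 was at 56.1 ± 2.68 in 2-week females and 297 ± 46.7 in 65-week females, and at 53.2 ± 2.33 in 2-week males and 359 ± 31.3 in 65-week males (SD, n = 3). Without Pecam1 the 65-week means of Nrp1 were 445 in females and 440 in males. These values describe proportions between transcripts. Macrophages, which are known to express Nrp1, Flt1 and Nrp2, also contribute RNA here: the 7 macrophage genes summed to 2793 to 5351.8 CPM at 2 weeks and to 2992.3 to 4683.2 CPM at 65 weeks, with 5 called higher and 0 lower in females and 3 higher and 1 lower in males. A large part of this sum was Vcam1, which was also listed as a sinusoidal endothelial marker. Its mean was 1476.3 of 3128.2 CPM in 2-week females and 1310.9 of 4115.2 CPM in 65-week females. In males it was 2150.2 of 4379.3 CPM at 2 weeks and 1223.5 of 3677.3 CPM at 65 weeks. The part of macrophages in the values of the neuropilins and Flt1 was not tested.

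**Figure D3:**
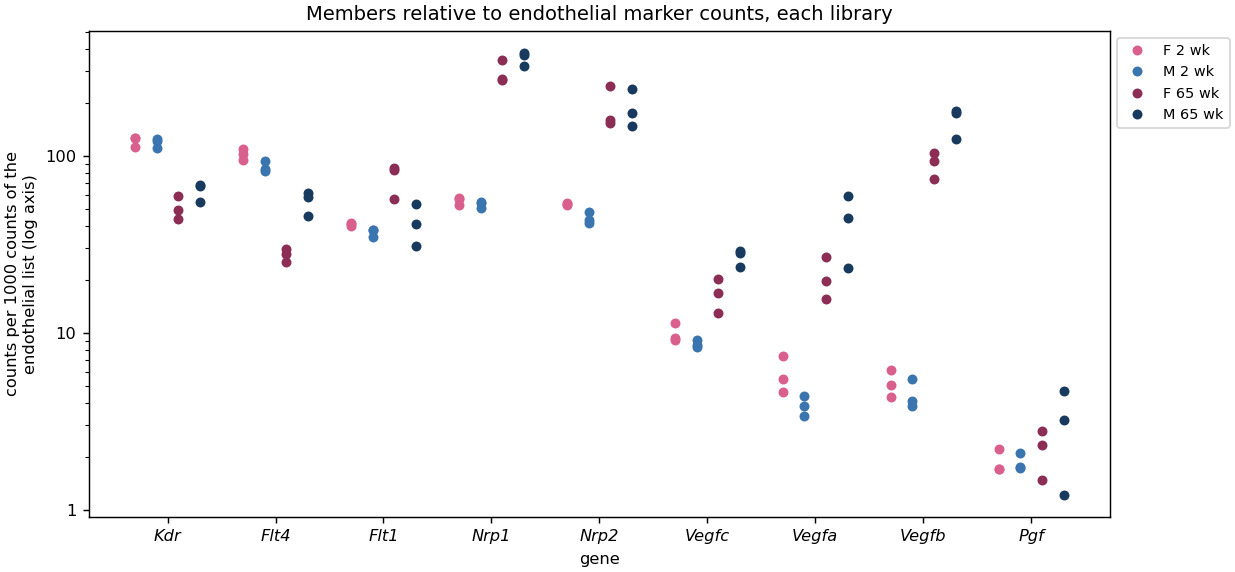
Counts of 9 members per 1000 counts of the 20 endothelial markers in each library, on a log axis, with points coloured by group. Kdr and Flt4 lie lower in the 65-week libraries than in the 2-week libraries, whereas Nrp1, Nrp2, Vegfa, Vegfb and Vegfc lie higher.

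Ratios between members changed accordingly. There were 3.01, 3.07 and 2.82 Kdr counts for each Flt1 count in 2-week females and 3.26, 3.17 and 3.18 in 2-week males. At 65 weeks the ratio was 0.772, 0.592 and 0.695 in females and 2.17, 1.29 and 1.33 in males. Kdr counts exceeded Flt1 counts in every library except those of 65-week females. Nrp1 counts per Kdr count were between 0.421 and 0.512 at 2 weeks and between 5.43 and 6.07 at 65 weeks, with the sexes close together. Vegfc counts per count of its receptor Flt4 rose from 0.0836 to 0.12 at 2 weeks to 0.435 to 0.723 at 65 weeks.

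Levels of different genes were compared per kilobase of the canonical transcript (CPM per kb). In 2-week females the order was Kdr at 83.8 ± 25.1, Flt4 at 66.8 ± 21.3, Nrp1 at 43.8 ± 9.13, Nrp2 at 31.9 ± 7.87 and Flt1 at 24.1 ± 6.29 CPM per kb (SD, n = 3), and each of these 5 overlapped with its neighbour in the order. The ligands followed, with Vegfc at 13.9 ± 2.19, Vegfb at 10.8 ± 0.843, Vegfa at 6.55 ± 0.23, Pgf at 3.56 ± 0.542 and Vegfd at 0.312 ± 0.237 CPM per kb (SD, n = 3), none overlapping with its neighbour. In 2-week males the order was the same, from Kdr at 104 ± 14 to Vegfd at 0.0842 ± 0.0888 CPM per kb (SD, n = 3), and no neighbours overlapped.

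At 65 weeks the order was led by other members. In females Nrp1 was at 15 ± 1.44, Vegfb at 12.4 ± 0.718 and Nrp2 at 7.12 ± 1.33 CPM per kb, followed by Flt1 at 2.86 ± 0.725 and Kdr at 2.24 ± 0.293, which overlapped (SD, n = 3). Vegfa and Vegfc, both at 1.53 CPM per kb, and Flt4 at 1.15 ± 0.0972 CPM per kb came next, with Vegfa overlapping Vegfc and Vegfc overlapping Flt4. Vegfd at 0.336 ± 0.0624 and Pgf at 0.28 ± 0.107 CPM per kb came last and overlapped. In males Vegfb at 18.8 ± 5.32 and Nrp1 at 15.3 ± 0.872 CPM per kb were first and overlapped, then came Nrp2 at 6.25 ± 2.44, Vegfa at 2.59 ± 0.828 and Kdr at 2.34 ± 0.0578 CPM per kb, of which Vegfa and Kdr overlapped (SD, n = 3). Vegfc at 2.08 ± 0.0637, Flt4 at 1.92 ± 0.0564 and Flt1 at 1.33 ± 0.326 CPM per kb followed without overlap, and Vegfd at 0.328 ± 0.227 and Pgf at 0.309 ± 0.164 CPM per kb overlapped in the last places (SD, n = 3). The order depends on the length used. With the length of all annotated exons in place of the canonical transcript, at 2 weeks in both sexes Nrp2 came before Nrp1 and Vegfc before Flt1. In 65-week females Vegfb came before Nrp1, and Vegfc moved from rank 7 to rank 4. In 65-week males Vegfc came before Kdr.

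**Figure D4:**
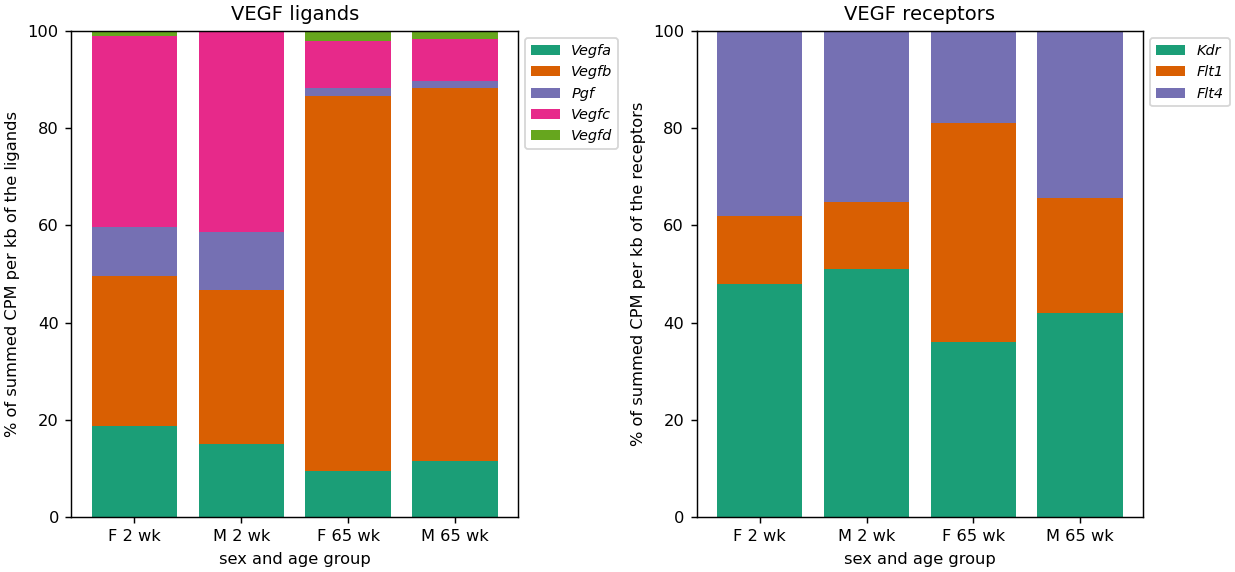
Mean share of each gene in the summed CPM per kb of the 5 ligands and of the 3 kinase receptors, as stacked bars from 0 to 100% for the 4 groups of 3 libraries. Vegfb makes up 77.1% of the ligands in 65-week females and 77% in 65-week males. Flt1 makes up 45.3% of the receptors in 65-week females (38.0% by the length of all annotated exons).

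Expressed as shares of the 5 ligands' summed CPM per kb, Vegfb made up 30.8 ± 1.18% in 2-week females and 77.1 ± 3% in 65-week females, and 31.6 ± 3.15% in 2-week males and 77 ± 8.83% in 65-week males (SD, n = 3). Vegfc went from 39.5 ± 2.11% to 9.56 ± 2% in females and from 41.2 ± 4.39% to 8.78 ± 1.46% in males (SD, n = 3). Vegfc, a ligand of Flt4, thus had the largest share at 2 weeks and Vegfb, a ligand of Flt1, at 65 weeks. Of the 3 kinase receptors, Flt1 made up 13.9 ± 0.603% in 2-week females, 13.7 ± 0.158% in 2-week males, 45.3 ± 4.59% in 65-week females and 23.6 ± 4.96% in 65-week males (SD, n = 3). Flt4 went from 38.1 ± 0.797% to 18.8 ± 3.95% in females and from 35.2 ± 1.47% to 34.4 ± 2.38% in males (SD, n = 3). The shares also depend on the length used. By the length of all annotated exons, Flt1 made up 38.0% and Kdr 38.4% of the receptors in 65-week females. Flt1 then made up 18.3% in 65-week males, and Vegfb 69.2% of the ligands in 65-week females and 69.4% in 65-week males. Shares within a set depend on each other and were not tested.

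Whether the family differed between sexes was asked at each age, male over female, since sex differences in BECs are the subject of the series. At 2 weeks 0 of the 10 members were called (edgeR adjusted p under 0.05), where 0.0332% of all genes were, and 3 members had an unadjusted p under 0.05, as did 17.8% of all genes. These were Pgf, higher in males by 0.35 on the log2 scale (95% interval 0.084 to 0.61, edgeR adjusted p = 0.231), Vegfa at -0.20 (95% interval -0.393 to -0.0155, edgeR adjusted p = 0.265) and Vegfd at -1.88 (95% interval -3.68 to -0.0683, edgeR adjusted p = 0.274). For the kinase receptors the intervals at 2 weeks ran from -0.165 to 0.755 for Kdr, from -0.205 to 0.591 for Flt1 and from -0.374 to 0.531 for Flt4. The libraries of the sexes did not overlap for 2 of the 10 members, Pgf and Vegfa, whereas 21.7% of all genes tested had groups that did not overlap at 2 weeks. DESeq2, which called 3.18% of the genes it tested at 2 weeks, also called 0 members.

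At 65 weeks 0 of the 10 members were called (edgeR adjusted p under 0.05), against 0.0420% of all genes, and 4 members had an unadjusted p under 0.05, as did 10.4% of all genes. Flt1 was lower in males by 1.13 on the log2 scale (95% interval -1.68 to -0.586, edgeR adjusted p = 0.173), with the 3 male libraries at 6.55 to 10.4 CPM and the 3 female libraries at 14.6 to 24.6 CPM. Flt4 was at 11.6 to 12.3 CPM in males and 6.52 to 7.68 CPM in females, a log2 fold change of 0.73 (95% interval 0.357 to 1.09, edgeR adjusted p = 0.173). Vegfa had a log2 fold change of 0.76 (95% interval 0.098 to 1.41, edgeR adjusted p = 0.413) and its libraries overlapped. Vegfb had a log2 fold change of 0.59 (95% interval 0.144 to 1.03, edgeR adjusted p = 0.338). Kdr and Nrp1 had narrow intervals around 0, from -0.293 to 0.402 for Kdr and from -0.233 to 0.262 for Nrp1.

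Some markers of other cells also stood apart between the sexes at 65 weeks. The neutrophil list summed to 11676.2 to 15530.1 CPM in females and 17192.6 to 25436 CPM in males, with 0 of 8 genes called and all 8 at an unadjusted p under 0.05 (median log2 fold change 0.75). The macrophage list summed to 3674.5 to 4683.2 CPM in females and 2992.3 to 4432.6 CPM in males, with 0 of 7 genes called. Its gene Csf1r, the receptor of macrophage colony-stimulating factor, was at 708 to 1045.1 CPM in females and 523 to 692 CPM in males. Every other gene of the macrophage list overlapped between the sexes, and Cd68, Mrc1 and Spic had higher means in males. The median log2 fold change of the macrophage list was -0.0991. Pecam1 was at 74.6 to 106 CPM in females and 29.2 to 59.2 CPM in males, without overlap, as for Flt1 (log2 fold change -1.12, edgeR adjusted p = 0.173). The 20 endothelial markers summed to 234 to 296 CPM in females and 196 to 253 CPM in males. Pecam1 made up 33.4% of this sum in 65-week females and 18.4% in 65-week males (means, n = 3). Of the 18 markers tested 0 were called, with a median log2 fold change of 0.04. Cldn5 and Clec14a were higher in every male library than in any female one, and Tek and Esam were lower. The part of these cells in the values of Flt1, Flt4, Vegfa and Vegfb was not tested.

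The libraries of the sexes did not overlap at 65 weeks for 4 of the 10 members, Flt1, Flt4, Vegfb and Vegfc, where 15.5% of all genes tested did not. The result at this age depended on the fit. DESeq2, which called 2.84% of all genes, called Flt1 (DESeq2 adjusted p = 0.00128) and Flt4 (DESeq2 adjusted p = 0.0163). Without male 65-week replicate 3, the library with Xist counts, edgeR called 5.65% of all genes and 3 members: Vegfa at 1.00 (edgeR adjusted p = 0.0346), Flt1 at -1.21 (edgeR adjusted p = 0.0418) and Flt4 at 0.78 on the log2 scale (edgeR adjusted p = 0.0382).

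**Figure D5:**
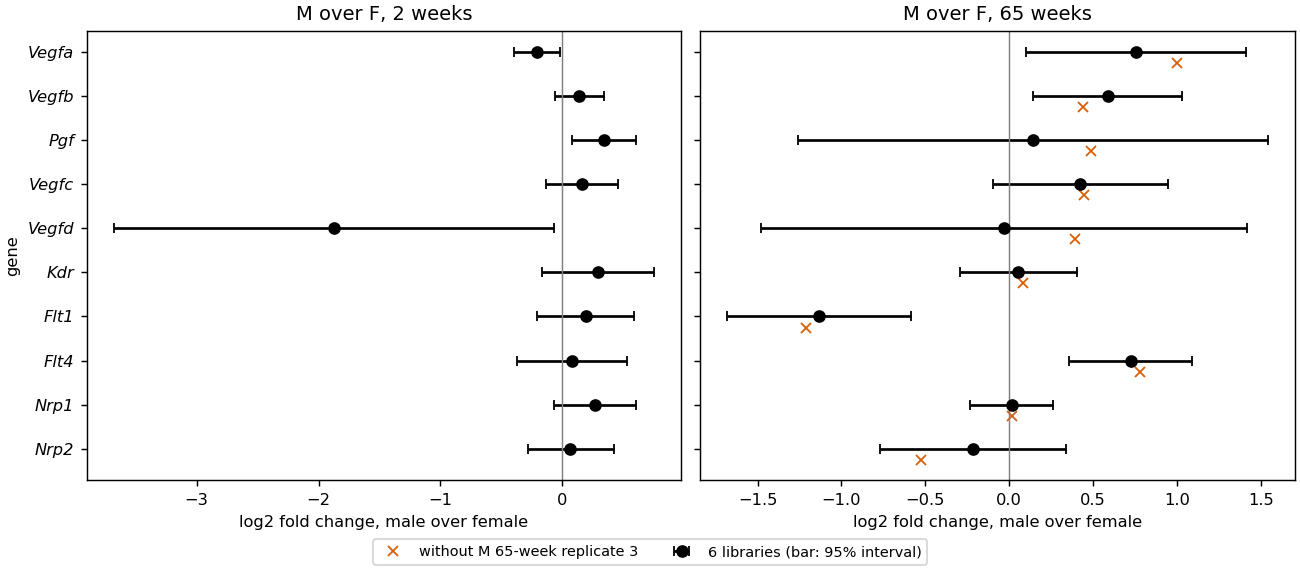
Log2 fold change of each gene, male over female, at 2 weeks (left) and at 65 weeks (right), with 95% intervals as bars, and for 65 weeks the value without male replicate 3 as crosses. At 65 weeks the interval of Flt1 lies below 0 (-1.68 to -0.586) and that of Flt4 above 0 (0.357 to 1.09), although neither passed the adjusted threshold.

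Whether the change with age itself differed between sexes was examined through the interaction term of a model of the 12 libraries. None of the 10 members was called by edgeR, against 0.00635% of all genes, and 3 members had an unadjusted p under 0.05, as did 11.9% of all genes. The interaction of Flt1 was -1.34 on the log2 scale, a larger fall in males (95% interval -2.05 to -0.631, edgeR adjusted p = 0.141). That of Vegfa was 0.94, a smaller fall in males (95% interval 0.284 to 1.59, edgeR adjusted p = 0.254), and that of Flt4 was 0.63 (95% interval 0.0483 to 1.21, edgeR adjusted p = 0.384). DESeq2 called Flt1 (log2 interaction -1.33, DESeq2 adjusted p = 0.0097). Without male 65-week replicate 3 edgeR called Vegfa (1.21, edgeR adjusted p = 0.0103) and Flt1 (-1.40, edgeR adjusted p = 0.0404), where 4.66% of all genes were called.

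The rest of the pathway was read from 6 lists with 80 genes in all: ligand processing, semaphorins and plexins, receptor signalling, receptor regulators, oxygen sensing and genes known to respond to VEGF. At 65 weeks 43 of the 79 genes tested were called lower and 21 higher in females, and 47 of 80 lower and 13 higher in males (edgeR adjusted p under 0.05, as for each list and each rise or fall of its genes named here). Over all genes 29.5% were lower and 30.2% higher in females, and 28.5% and 27.0% in males, so that the shares of 5 lower and 5 higher among 10 receptor regulators or 3 and 3 among 9 genes of oxygen sensing are read against these. The median log2 fold change of the pathway genes was -0.36 in females and -0.64 in males. Between sexes edgeR called 0 of these genes at either age, with 15 of 79 genes (19%) at 2 weeks and 8 of 77 (10.4%) at 65 weeks at an unadjusted p under 0.05, close to the 17.8% and 10.4% of all genes.

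Of the 8 genes of ligand processing, 6 were lower and 0 higher in females, and 5 lower and 0 higher in males. Hspg2 (perlecan), a heparan sulfate proteoglycan of basement membranes that binds VEGF, fell in females from 763 ± 286 to 9.22 ± 0.291 CPM and in males from 828 ± 95.8 to 8.94 ± 1.06 CPM (SD, n = 3). Ccbe1, which promotes the cleavage of Vegfc, fell in females from 18.7 ± 3.2 to 1.98 ± 0.665 CPM (log2 fold change -3.09, edgeR adjusted p = 2.5e-05) and in males from 19.6 ± 0.25 to 2.77 ± 0.729 CPM (log2 fold change -2.7, edgeR adjusted p = 3.18e-05). Pcsk5, a proprotein convertase, fell by 5.38 on the log2 scale in females and by 4.74 in males.

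Of the semaphorins and plexins, which share the neuropilins with the VEGF ligands, 9 of 12 tested genes were lower and 2 higher in females, and 9 of 13 lower and 0 higher in males. Sema3a, the classical ligand of Nrp1, fell in females from 24.9 ± 8.1 to 1.31 ± 0.271 CPM and in males from 26 ± 2.22 to 1.45 ± 0.391 CPM (SD, n = 3). Sema3f, the classical ligand of Nrp2, fell in females from 41.1 ± 9.95 to 2.42 ± 0.473 CPM and in males from 47.2 ± 6.77 to 2.34 ± 0.824 CPM (SD, n = 3). The log2 fold change of Plxna2 was -4.31 in females and -3.505 in males. Sema3g, which also stands in the list of arterial markers, fell by 3.09 in females and by 4.75 in males. Plxna1 was higher in females by 0.58 on the log2 scale (edgeR adjusted p = 0.0169), and in males its value was 0.43 (edgeR adjusted p = 0.0684).

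The 28 genes of receptor signalling were split, with 13 lower and 9 higher in females and 14 lower and 7 higher in males. Nos3, the endothelial nitric oxide synthase, fell in females from 26.1 ± 5.48 to 0.539 ± 0.221 CPM and in males from 31.2 ± 5.01 to 0.648 ± 0.0378 CPM (SD, n = 3). Yes1, a kinase of the Src family, fell by 4.21 on the log2 scale in females and by 4.14 in males, Ptk2, the focal adhesion kinase, by 2.21 and 2.55, and Prkd1 by 3.43 and 2.66. Prkcb, a protein kinase C that is also known from B cells, rose by 2.25 on the log2 scale in females (edgeR adjusted p = 1.79e-06) and by 2.32 in males (edgeR adjusted p = 0.000129). Grb2, an adaptor, rose by 0.86 in females and 0.85 in males, Sh2d2a, an adaptor known from T cells, by 1.75 and 1.58, and Pik3ca by 0.56 and 0.40. The B cell list rose alongside, from 194 to 286 CPM at 2 weeks to 313 to 1185.8 CPM at 65 weeks. The list of T and NK cell genes rose from 52.1 to 77.5 CPM to 114 to 200 CPM. In each list 5 of 6 genes were called higher in each sex. Of the T and NK cell genes 1, Gzma, was called lower in each sex. Cd4 held most of that list's sum, at means of 47.1 CPM in 2-week and 121 CPM in 65-week females, and 57.1 and 127 CPM in males. The part of B, T and NK cells in the rises of these signalling genes was not tested.

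Of the 10 receptor regulators, 5 were lower and 5 higher in females, and 5 lower and 3 higher in males. Ptprb (VE-PTP), an endothelial phosphatase that also stands in the endothelial list, fell by 4.49 on the log2 scale in females and by 5.15 in males. Efnb2, a guide of Kdr and Flt4 internalization and an arterial marker, fell by 4.33 and 6.11, Dab2 by 2.56 and 2.32, and Epn2 by 2.43 and 2.40. Of the 6 genes in the list of arterial markers, 5 were called lower and 1, Bmx, higher in each sex. Ptpn6 (SHP-1), a phosphatase abundant in blood cells, rose in females from 139 ± 11.5 to 333 ± 16.8 CPM and in males from 113 ± 2.39 to 295 ± 82.1 CPM (SD, n = 3). Ptpn1 rose by 0.86 on the log2 scale in females and 0.62 in males, and Epn1 by 0.25 and 0.51. Ptprj rose by 0.97 in females, and in males its value was 0.28 (edgeR adjusted p = 0.203).

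Of the 9 genes of oxygen sensing, which set the transcription of Vegfa, 3 were lower and 3 higher in females, and 5 lower and 2 higher in males. Epas1 (HIF-2 alpha), rich in endothelium, fell in females from 298 ± 65.5 to 56 ± 12.6 CPM and in males from 297 ± 28.5 to 48.6 ± 11.4 CPM (SD, n = 3). Hif3a fell by 1.9 on the log2 scale in females and by 2.21 in males, and Vhl by 0.336 and 0.432. Hif1a had a log2 fold change of -0.10 in females (edgeR adjusted p = 0.406) and fell by 0.64 in males (edgeR adjusted p = 0.0197). Egln3, a prolyl hydroxylase, rose by 1.14 on the log2 scale in females and by 0.72 in males, and Egln2 by 0.35 and 0.38. Hif1an rose by 0.39 in females, and in males its value was 0.27 (edgeR adjusted p = 0.0645).

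Of the 12 genes known to respond to VEGF, 7 were lower and 2 higher in females, and 9 lower and 1 higher in males. Apln (apelin), a tip cell peptide, fell in females from 28 ± 8.93 to 0.563 ± 0.371 CPM and in males from 39.2 ± 8.77 to 1.02 ± 0.268 CPM (SD, n = 3). Dll4, the Notch ligand of tip cells, fell by 4.63 on the log2 scale in females and by 4.47 in males. Adamts1, a secreted protease, had a log2 fold change of -3.79 in females and -4.505 in males. Plat (tissue plasminogen activator) fell by 4.53 on the log2 scale in females, and in males it was at 13.2 ± 2.55 CPM at 2 weeks (SD, n = 3) and held 0 counts in the 65-week libraries. Nr4a1, an immediate early gene also induced in many blood cells, rose by 2.72 on the log2 scale in females (edgeR adjusted p = 2.15e-05) and by 1.65 in males (edgeR adjusted p = 0.00154), and Egr3 by 1.55 in females (edgeR adjusted p = 0.0117). In males the value of Egr3 was 0.83 (edgeR adjusted p = 0.124).

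The genes with the profile most like that of a member were found by the root mean square difference of log2(CPM + 0.5), each gene centred on its own mean over the 12 libraries, among 12171 genes. For Kdr they were Sparc (0.12), Ephb4 (0.16), Cdh13 (0.16), Plvap (0.17) and Lrrc55 (0.17). At 65 weeks Cdh13, at a mean of 0.0635 CPM in females and of 0.187 CPM in males, and Lrrc55, at 0 CPM in both, lay below the added 0.5, so their distances depend on it. For Flt4 they were Mmp2 (0.14), Pcdh12 (0.22), Gpihbp1 (0.22), Sparc (0.23) and Plvap (0.23), so that Sparc, a matrix protein, and Plvap, a protein of fenestrated endothelium, stood near both receptors. For Flt1 they were Heyl (0.13), Col6a2 (0.26), Dock6 (0.28), Chsy3 (0.29) and Acer2 (0.30), and Chsy3 too lay below the added 0.5 at 65 weeks, at 0.477 and 0.0988 CPM. Heyl, a Notch target, was at 43.5 CPM in 2-week females, 49.5 in 2-week males, 4.52 in 65-week females and 1.87 in 65-week males on average. Its lower level in males at 65 weeks, as for Flt1, is part of the profile by which it was picked. For Vegfa they were Il1rl2 (0.21), Epdr1 (0.21), Arhgef25 (0.22), Zfp948 (0.23) and Map3k6 (0.24). These distances are over 12 libraries of 2 ages, between which the level of endothelial markers and the depth differed as well.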

How the data were processed

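The 12 libraries hold RNA of cells labelled as BECs, in 4 groups of 3, assigned by the sex and age in their labels. The authors deposited counts per gene, not normalised. Their methods name STAR, featureCounts and GRCm39, the labels' processing notes name TopHat2, HTSeq and mm9, and this was not resolved. Per the methods samples were chosen by RNA quality, and femurs were used as well as tibiae. The kit was for total RNA, the molecule label names polyA RNA. Of 37620 genes, 31052 were found in GENCODE M39, with 99.287% of the counts, which gave names, coordinates and lengths.

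Counts were fitted in edgeR 4.0.16 under R 4.3.3. Low genes were removed by filterByExpr (minimum count 10), libraries scaled by TMM, and quasi-likelihood tests adjusted over all genes by Benjamini-Hochberg at a threshold of 0.05, on the 6 libraries of each comparison or all 12 for the interaction. The F statistic gave the standard errors, and its degrees of freedom the intervals. Members, lists and rules were chosen with earlier results of these data known. All 10 members were named, and from each list up to 3 called genes each way whose average log2 CPM was 1 or more. Alternatives were DESeq2 1.42.0, median-of-ratios scaling, no filter or a CPM of 1 in 3 libraries, a model of all 12 libraries, the replicate number as a block, and fits without each library in turn. Exon union length and an endothelial sum without Pecam1 were added after seeing the data.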

Additional observations from a re-analysis of the deposited data

How the results depend on the processing

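The age comparisons called 8 to 9 of the 10 members in females and 8 to 10 in males under all alternatives, and no member that was called changed direction. Replicate numbers did not pair the libraries (correlations of same-numbered libraries from -0.355 to 0.14), and with the replicate block 9 members were called in females, 10 in males (Vegfd in addition, edgeR adjusted p = 0.0255) and 0 in either sex comparison or in the interaction, where it left 0 genes called against 1.

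The sex comparisons and the interaction moved more than the age comparisons. The 5 genes called at 2 weeks became 417 with DESeq2, 8 with all 12 libraries in 1 model and 5 to 11 on leaving out 1 library (11 without female replicate 2). The 6 genes called at 65 weeks became 363 with DESeq2, 105 with no low count filter, 254 with all 12 libraries in 1 model and 5 to 830 on leaving out 1 library (830 without male replicate 3, 15 without male replicate 2). Of the members, 2 were called at 65 weeks with DESeq2, 1 (Flt1, edgeR adjusted p = 0.0415) with no filter, 1 (Flt1, edgeR adjusted p = 0.0424) with all 12 libraries and 0 to 3 on leaving out 1 library. In the interaction DESeq2 called 353 genes and 1 member, no filter gave 7 genes, and leaving out 1 library gave 0 to 750 genes and 0 to 2 members, the highest of both without male 65-week replicate 3. The cause of these moves was not tested. Depth limits Vegfd and, at 65 weeks, Pgf, which held 2 to 48 and 8 to 28 counts per library.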
